A study of Mus musculus with 24 samples.

Results

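The YAP, TEAD and CCN mechanosensing genes followed here in optogenetic C2C12 muscle tissues are Ccn1, Ccn2, Amotl2, Lats2, Yap1, Wwtr1, Tead1, Tead2, Tead3, and Tead4. They were taken by gene name from a list of 10 symbols, drawn up with earlier results of these data known. They are 10 of the 56941 genes in the deposited tables. All 10 passed the filter on low counts that kept 13315 genes for testing. The tissues were made from C2C12, an established mouse myoblast line, carrying the light-gated channel ChR2 fused to tdTomato (genotype ChR2::tdTomato), so that blue light triggers contraction. Cells of this line were seeded on fibrin hydrogels, differentiated for about 2 weeks in medium with horse serum and IGF-1, and either left unstimulated (control) or stimulated with light for 60 min every day at 1, 4, or 10 Hz. Each condition had 6 biological replicates, as the study calls them, or 24 bulk RNA-seq libraries in all, and the replicates are cultures of the same engineered line and not of separate animals. The controls carried the same ChR2 transgene and had the same gel and medium as the stimulated tissues, and the 3 comparisons with the control share the same 6 control libraries. The paper reports spontaneous twitching of the tissues in every condition and holds that the unstimulated controls may still have exercised themselves. Light on cells without ChR2 was not analysed here, so light and contraction cannot be told apart in these values.

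YAP (gene Yap1) and its paralog TAZ (gene Wwtr1) are transcriptional coactivators that enter the nucleus when cells are stretched, spread, or under actomyosin tension, and there bind TEAD factors (genes Tead1 to Tead4), which supply the contact with DNA. Kinases of the Hippo pathway, ending in LATS1 and LATS2, phosphorylate both coactivators and keep them in the cytoplasm, and angiomotin proteins such as AMOTL2 hold them there. Ccn1 and Ccn2 encode secreted matricellular proteins that are widely used as target genes of YAP and TEAD, and Lats2 and Amotl2 are targets that feed back on the pathway. Activity of YAP and TAZ is set largely by phosphorylation and location, which RNA levels do not show.

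Values are given in counts per 1000000 (CPM), estimated counts scaled for library size by edgeR's TMM factors, and levels of different genes are compared only in transcripts per 1000000 (TPM), which are divided by transcript length. The log2(fold change) is always the first named condition minus the second, with its standard error (SE). Each adjusted p comes from the quasi-likelihood test of edgeR, fitted once to all 24 libraries and adjusted by Benjamini-Hochberg over all 13315 genes, unless another test is named, and "upregulated" and "downregulated" are used at an adjusted p under 0.05. In bulk RNA, fewer cells of a type and less RNA per cell cannot be told apart.

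Library depth ran from 8052369 to 18159144 estimated counts, and edgeR put the biological coefficient of variation at 14.8%. All 10 myotube markers were tested, with a summed level of 11110 to 18420 TPM over the 24 libraries, while the 5 adipocyte markers summed to at most 1.34 TPM and 0 of them were tested. Summed over 5 markers of reserve or undifferentiated myoblasts, the level was 296 to 332 TPM in the controls, 274 to 349 TPM at 1 Hz, 263 to 344 TPM at 4 Hz, and 299 to 351 TPM at 10 Hz. Of these 5, 3 were higher and 1 lower at 1 Hz, and 4 were higher and 1 lower at 4 Hz. Sdc4 made up most of the sum, with a control mean of 254.5 TPM. Pax7 fell from a mean of 1.63 TPM in the controls to 0.523 TPM at 1 Hz and 0.445 TPM at 4 Hz. Myf5 rose from 9.96 TPM to 21.45 and 17.99 TPM. The 8 markers of proliferating cells summed to 19.7 to 49.4 TPM over all libraries, with 1 higher and 0 lower at 1 Hz and 1 higher and 3 lower at 4 Hz. The 7 fibroblast markers summed to 298 to 595 TPM, and of the 6 tested, 2 were higher and 2 lower at both frequencies. Over all tested genes, 19.2% were higher and 18.1% lower at 1 Hz, and 27.5% and 23.9% at 4 Hz. Limma on log2(TPM + 1) called 2 reserve markers higher and 1 lower at both frequencies, 0 and then 2 proliferation markers lower and 0 higher, and 2 fibroblast markers lower and 0 higher at both. It called 3.58% of all genes higher and 21.9% lower at 1 Hz, and 5.83% and 35.9% at 4 Hz. Among 6 endothelial or immune markers, 1 was tested and it was not called at any frequency. The 18 RNAs without a poly(A) tail, used as a sign of ribodepletion, summed to 159 to 704 TPM in the controls, 588 to 1620 TPM at 1 Hz, 360 to 3391 TPM at 4 Hz, and 254 to 530 TPM at 10 Hz, and 1 of the 18 (H4c2) was at 0 in every library. Of these 18 RNAs, edgeR tested 7. It called 4 higher and 1 lower at 1 Hz, 4 higher and 0 lower at 4 Hz, and 0 at 10 Hz. Ranked by edgeR's change, the middle RNA of the 7 stood at 1.58, 1.72, and -0.07 in that order of frequencies. On log2(TPM + 1), limma called 2 higher and 1 lower at 1 Hz, and 3 higher and 0 lower at 4 Hz. By either test, calls among these RNAs were found only at 1 and 4 Hz, as were those of the 10 genes against the control. The labels state that low-input samples were ribodepleted without naming them, and the part of this in the changes given here was not tested. On the scale of log2(TPM + 1), all genes had a median change of -0.14 at 1 Hz and -0.21 under 4 Hz, while the CPM scale gave 0.04 and 0.06, and a TPM change said below to be relative to the median gene has that median taken off, while the other TPM changes are as limma fitted them.

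Promoters are shown for the 4 genes with an entry in the RefSeq promoter table (build GRCm38.p6) that also passed the test in a comparison with the control, since TEAD factors are known to bind the letters GGAATG or their reverse complement CATTCC. The table holds 250 bases before and 50 after each start site and had 11 windows for 7 of the 10 genes. Ccn2, Tead1, and Tead4 had no entry. Each stretch printed here is the 250 bases before the start site, 5′ to 3′ on the strand of the gene, with the motif on either strand in capitals, and its position in GRCm39 is from an exact match to that genome. The Ccn1 stretch is chr3:145355741-145355990 (minus strand), the Amotl2 stretch is chr9:102594753-102595002 (plus strand), the Yap1 stretch is chr9:8004598-8004847 (minus strand), and the Tead2 stretch is chr7:44864966-44865215 (plus strand).
Ccn1: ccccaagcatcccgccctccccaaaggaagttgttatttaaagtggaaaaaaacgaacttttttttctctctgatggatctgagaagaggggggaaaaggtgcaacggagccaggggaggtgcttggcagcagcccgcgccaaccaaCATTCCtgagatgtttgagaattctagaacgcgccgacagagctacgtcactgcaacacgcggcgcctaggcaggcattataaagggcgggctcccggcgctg
Amotl2: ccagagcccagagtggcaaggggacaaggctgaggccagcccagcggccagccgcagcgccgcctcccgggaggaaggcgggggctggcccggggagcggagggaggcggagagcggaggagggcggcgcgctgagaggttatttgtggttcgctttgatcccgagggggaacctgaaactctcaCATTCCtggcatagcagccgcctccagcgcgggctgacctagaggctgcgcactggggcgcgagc
Yap1: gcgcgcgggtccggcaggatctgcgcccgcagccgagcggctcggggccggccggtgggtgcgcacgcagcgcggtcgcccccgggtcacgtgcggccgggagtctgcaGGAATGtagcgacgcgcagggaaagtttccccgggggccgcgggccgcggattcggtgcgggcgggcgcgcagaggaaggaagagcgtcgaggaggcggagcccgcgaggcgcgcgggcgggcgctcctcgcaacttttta
Tead2: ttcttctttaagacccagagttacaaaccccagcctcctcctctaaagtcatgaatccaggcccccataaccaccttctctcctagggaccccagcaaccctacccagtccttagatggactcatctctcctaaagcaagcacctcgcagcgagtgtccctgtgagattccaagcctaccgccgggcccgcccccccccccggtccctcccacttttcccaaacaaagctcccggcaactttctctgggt

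The motif began 103 bases before the start site of Ccn1 and 65 bases before that of Amotl2, both times as CATTCC, and 141 bases before that of Yap1 as GGAATG. The Tead2 window held none. Over the 7 genes with an entry, 6 had the motif in at least 1 window (8 of 11 windows), while 14.7% of all 32851 windows in the table and 16.6% of the 27025 genes had it. Windows of the same gene can overlap. Both Wwtr1 windows held the same GGAATG, so that site was counted with each of them. The CArG box, the known binding sequence of serum response factor, was in 0 of the 11 windows and in 1.63% of all windows. These are matches of letters in a fixed window and are not measured binding.

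At 1 Hz, 3 of the 10 genes were upregulated (Ccn1, Ccn2, Tead2) and 1 was downregulated (Tead4), against 19.2% of all tested genes that were upregulated and 18.1% that were downregulated. At 4 Hz, 4 were upregulated (Ccn1, Ccn2, Amotl2, Tead2) and 2 were downregulated (Yap1, Tead4), against 27.5% and 23.9% of all tested genes. The shares among the 10 genes are therefore near those among all genes, and what sets the group apart is given gene by gene. With an absolute log2(fold change) over 0.5 asked as well, Ccn1, Ccn2, and Tead4 were left at both frequencies, where 7.19% of all genes were upregulated and 7.74% downregulated by that rule at 1 Hz, and 12.8% and 12.3% at 4 Hz. With limma on log2(TPM + 1) the split was 2 higher (Ccn1, Ccn2) and 1 lower (Tead4) at 1 Hz, and the same 2 higher with 4 lower (Yap1, Tead1, Tead3, Tead4) at 4 Hz, while 3.58% of all genes on that scale were higher and 21.9% lower at 1 Hz, and 5.83% and 35.9% at 4 Hz. At 10 Hz, edgeR called 0 of the 10, with 2 at an unadjusted p under 0.05 (Tead2 and Tead4), and DESeq2 and limma on log2(TPM + 1) also called 0, against 0.0376% of all tested genes called in either direction. Between 4 Hz and 1 Hz, 0 of the 10 were called by edgeR and 0 had an unadjusted p under 0.05, against 0% of all genes called.

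**Figure D1:**
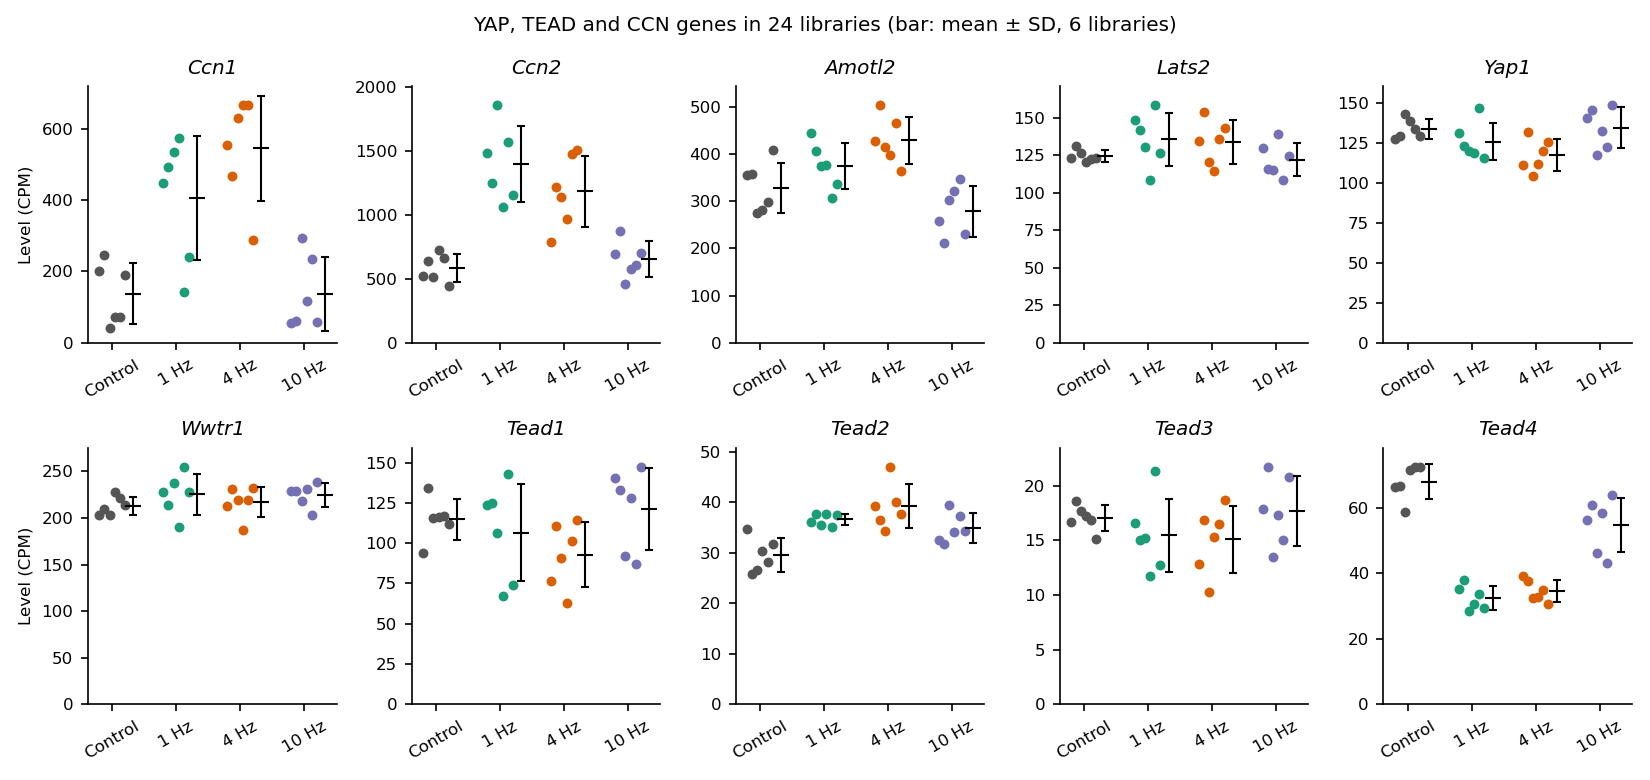
Level of each of the 10 genes in CPM (linear axis from 0) in the 6 unstimulated libraries and the 6 at each of 1, 4, and 10 Hz, 1 point per library, with the mean and SD of each condition as a bar. Ccn2 lies at 447 to 727 CPM in the controls and at 1058 to 1859 CPM at 1 Hz, Tead4 falls from 58.6 to 72.6 CPM in the controls to 28.4 to 37.9 CPM at 1 Hz, and Wwtr1 overlaps in all conditions.

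Ccn1 (also called Cyr61, ENSMUSG00000028195, chr3:145352720-145355738, minus strand) encodes a secreted matricellular protein that signals through integrins, and it showed the largest log2(fold change) and the largest SE of the 10 genes at 1 and 4 Hz. The 6 controls spanned 41.9 to 247 CPM with a median of 132, the 1 Hz libraries 141 to 573 CPM (median 471), the 4 Hz libraries 287 to 667 CPM (median 593), and the 10 Hz libraries 54.7 to 292 CPM (median 89.5). All 6 libraries at 4 Hz lay above all controls in CPM but not in TPM, 4 of 6 did so at 1 Hz, and the 10 Hz libraries overlapped the controls, with 1 above them all. Upregulation of Ccn1 at 1 Hz was 1.56 in log2(fold change) (SE 0.49, adjusted p = 0.0185), and at 4 Hz it was 1.98 (SE 0.50, adjusted p = 0.00277). At 10 Hz the difference was -0.01 (95% interval -0.97 to 0.94, adjusted p = 0.999). In log2(TPM + 1) and relative to the median gene, the changes were 1.60 at 1 Hz and 2.08 at 4 Hz.

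The control libraries of Ccn1 fell apart within their own group. Replicates 1, 2, and 6 were at 201, 247, and 191 CPM, and replicates 3, 4, and 5 were at 41.9, 73.5, and 72.0 CPM. Stimulated tissues were split as well, with 1 Hz replicates 5 and 6 at 141 and 241 CPM against 447 CPM or more in the other 4, and 10 Hz replicates 3 and 5 at 292 and 235 CPM against 117 CPM or less in the other 4. No label gives a batch or plate that could be set beside this. For each library, log2(TPM + 1) less its control mean had a median over all tested genes. At 10 Hz this median was -0.0944 and -0.136 in replicates 3 and 5, against 0.015 to 0.0594 in the other 4. At 1 Hz it was 0.00793 and -0.385 in replicates 5 and 6, against -0.348 to -0.0273 in the other 4. Control replicates 1, 2, and 6 were at -0.0461 to -0.0108, against -0.0177 to 0.0527 in replicates 3, 4, and 5. The source of the split was not tested. Ccn1 overlaps Gm17501 on the opposite strand, and how counting used the strand is not given in the sources used here. The estimated counts of Gm17501 summed to 1.20% of those of Ccn1 over the 24 libraries. Gm17501, named after its values were seen, was upregulated at 1 Hz by 1.27 (SE 0.17, adjusted p = 4.14e-06), at 4 Hz by 1.37 (SE 0.17, adjusted p = 7.18e-07), and at 10 Hz by 0.94 (SE 0.18, adjusted p = 0.038), with 6 of 6 libraries above all controls each time. Limma on log2(TPM + 1) gave it 0.84, 0.83, and 0.72, with adjusted p of 0.000422, 0.000139, and 0.181. Whether reads of Ccn1 and Gm17501 were mixed was not tested.

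Ccn2 (also called Ctgf, ENSMUSG00000019997, chr10:24471333-24474900, plus strand) encodes another matricellular protein, known for its part in fibrosis and matrix production. Control libraries ran from 447 to 727 CPM around a median of 580, those at 1 Hz from 1058 to 1859 CPM (median 1369), those at 4 Hz from 791 to 1508 CPM (median 1178), and those at 10 Hz from 459 to 873 CPM (median 650). All 1 Hz and all 4 Hz libraries lay above all controls in CPM, which held in TPM at 1 Hz but not at 4 Hz, and the 10 Hz libraries overlapped the controls. At 1 Hz, Ccn2 was upregulated with a log2(fold change) of 1.25 (SE 0.17, adjusted p = 4.92e-06) and at 4 Hz with 1.02 (SE 0.17, adjusted p = 3.03e-05), and the 10 Hz value was 0.15 (95% interval -0.17 to 0.48, adjusted p = 0.909). Relative to the median gene on log2(TPM + 1), the values were 1.16 at 1 Hz and 0.88 at 4 Hz. With a control mean of 432 TPM, Ccn2 was the most abundant of the 10 genes per length, and at 1 Hz it reached a mean of 905 TPM.

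Ccn1 and Ccn2 did not order the tissues in the same way. The mean ratio of Ccn1 to Ccn2 TPM was 0.277 ± 0.186 for controls, 0.345 ± 0.178 under 1 Hz, 0.551 ± 0.218 under 4 Hz, and 0.274 ± 0.258 under 10 Hz (SD, n = 6), and the conditions overlapped. The control library with the lowest Ccn2 level, replicate 6 at 447 CPM, was among the 3 with high Ccn1, and the 10 Hz library with the highest Ccn1 level, replicate 3, had the lowest Ccn2 level of its condition at 459 CPM. After the mean of each condition was removed, Pearson's r of Ccn1 and Ccn2 over the 24 libraries was -0.40 (log2 CPM, a description of libraries that share their normalization), while without that removal it was 0.53. For Ccn1 and Amotl2 these values were 0.79 and 0.87, and for Ccn1 and Yap1 they were -0.75 and -0.82.

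**Figure D2:**
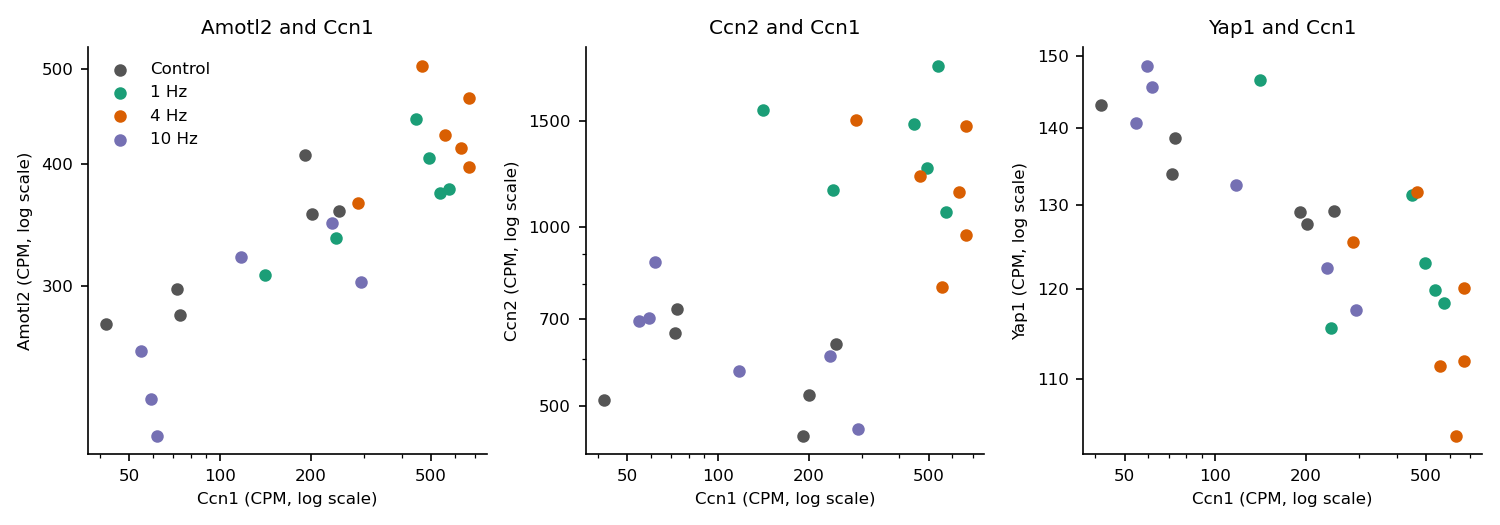
Levels of Amotl2, Ccn2, and Yap1 (vertical axes) against Ccn1 (horizontal axis), all in CPM on log axes, with 1 point for each of the 24 libraries coloured by condition. Within conditions Amotl2 is higher where Ccn1 is higher and Yap1 is lower (r of 0.79 and -0.75 after removal of condition means). Ccn2 lies above all controls at 1 and 4 Hz, while its 4 Hz and 10 Hz libraries overlap. Within conditions it does not rise with Ccn1 (r of -0.40).

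Amotl2 (ENSMUSG00000032531, chr9:102593836-102610617, plus strand) encodes an angiomotin-like junction protein that binds YAP. From the lowest library through the median to the highest, the level was 274, 327, and 409 CPM for unstimulated tissues, 308, 375, and 445 CPM under 1 Hz, 364, 422, and 504 CPM under 4 Hz, and 211, 281, and 348 CPM under 10 Hz. Of the 6 libraries at 4 Hz, 4 lay above all controls, and the other conditions overlapped the controls more widely. At 4 Hz, Amotl2 was upregulated with a log2(fold change) of 0.38 (SE 0.12, adjusted p = 0.00893), whereas 0.19 at 1 Hz and -0.24 at 10 Hz did not pass (adjusted p of 0.223 and 0.622). On log2(TPM + 1) the 4 Hz change was 0.07 with limma's adjusted p = 0.728, or 0.28 relative to the median gene, so this call rested on the CPM scale. The 3 control libraries with high Ccn1 were also the 3 with high Amotl2, at 355, 358, and 409 CPM in replicates 1, 2, and 6 against 274, 281, and 298 CPM in replicates 3, 4, and 5.

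Lats2 (ENSMUSG00000021959, chr14:57926960-57995845, minus strand), the Hippo kinase that phosphorylates YAP and TAZ, was not called at any frequency. The 6 controls spanned 121 to 131 CPM with a median of 123, the 1 Hz libraries 108 to 158 CPM (median 136), the 4 Hz libraries 114 to 154 CPM (median 135), and the 10 Hz libraries 109 to 139 CPM (median 120). The controls lay close together and the stimulated libraries reached both above and below them. The log2(fold change) was 0.12 at 1 Hz (95% interval -0.04 to 0.28, adjusted p = 0.248), 0.10 at 4 Hz (95% interval -0.06 to 0.27, adjusted p = 0.303), and -0.03 under 10 Hz stimulation (adjusted p = 0.984). As limma fitted them on log2(TPM + 1), the 1 and 4 Hz values were -0.11 and -0.21, and relative to the median gene they were 0.03 and 0.0003.

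Yap1 (ENSMUSG00000053110, chr9:7932000-8004661, minus strand) changed little. Control libraries ran from 128 to 143 CPM around a median of 132, those at 1 Hz from 116 to 147 CPM (median 121), those at 4 Hz from 104 to 132 CPM (median 116), and those at 10 Hz from 118 to 149 CPM (median 137). At 4 Hz, 5 of 6 libraries lay below all controls, and the other frequencies overlapped them on both sides. The log2(fold change) was -0.19 at 4 Hz (SE 0.07, adjusted p = 0.033), a decrease of 12.1%, against -0.09 at 1 Hz and 0.01 at 10 Hz (adjusted p of 0.345 and 0.994). The 4 Hz call was lost without control replicate 3 (adjusted p = 0.0577), without 4 Hz replicate 1 (adjusted p = 0.0692), and with upper-quartile factors (adjusted p = 0.0519). On log2(TPM + 1), limma gave -0.55 at 4 Hz (adjusted p = 0.00436), which was -0.34 relative to the median gene.

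Wwtr1 (ENSMUSG00000027803, chr3:57363067-57483331, minus strand), which encodes TAZ, was not called by edgeR in any comparison. From the lowest library through the median to the highest, the level was 203, 212, and 227 CPM for unstimulated tissues, 190, 228, and 255 CPM under 1 Hz, 187, 219, and 232 CPM under 4 Hz, and 203, 229, and 239 CPM under 10 Hz. All conditions overlapped. The log2(fold change) was 0.08 at 1 Hz (95% interval -0.05 to 0.21), 0.03 at 4 Hz (-0.11 to 0.16), and 0.08 at 10 Hz (-0.05 to 0.21), with adjusted p values of 0.357, 0.767, and 0.867, and on log2(TPM + 1) limma's values at 1 and 4 Hz were -0.13 and -0.30, or 0.01 and -0.09 relative to the median gene. Yap1 made up 42.9% ± 1.41 of the summed TPM of Yap1 and Wwtr1 in controls, 39.3% ± 2.25 under 1 Hz, 38.5% ± 2.51 under 4 Hz, and 41.8% ± 2.29 under 10 Hz (SD, n = 6), so Wwtr1 was the more abundant coactivator transcript in every condition.

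**Figure D3:**
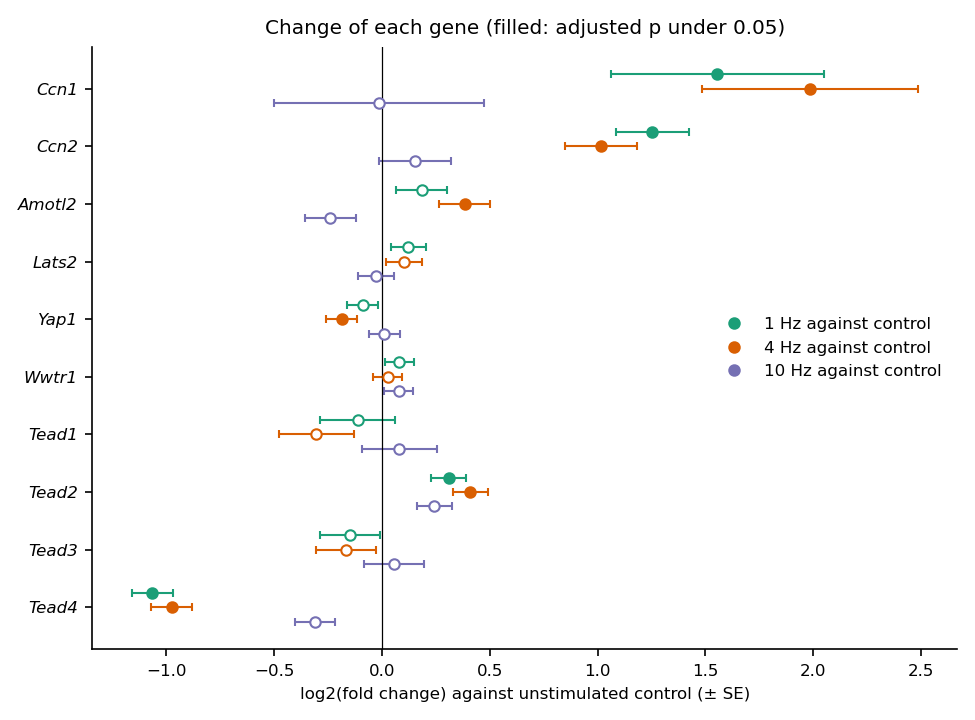
The log2(fold change) of each of the 10 genes at 1, 4, and 10 Hz against the unstimulated control (horizontal axis), with the SE from the edgeR fit as bars and filled points for an adjusted p under 0.05. Ccn1 and Ccn2 lie above 1 and Tead4 near -1 at 1 and 4 Hz, the other genes lie between -0.31 and 0.41 at those frequencies, and every point at 10 Hz is open.

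Tead4 (ENSMUSG00000030353, chr6:128201251-128277786, minus strand), a TEAD factor that is known to be switched on as myoblasts differentiate, was the gene with the smallest p of the 10 at 1 and 4 Hz. The 6 controls spanned 58.6 to 72.6 CPM with a median of 69.1, the 1 Hz libraries 28.4 to 37.9 CPM (median 32.2), the 4 Hz libraries 30.7 to 39.1 CPM (median 33.8), and the 10 Hz libraries 43.1 to 63.7 CPM (median 57.4). All 1 Hz and 4 Hz libraries lay below all controls, in CPM and in TPM, and also below all 10 Hz libraries. At 1 Hz, Tead4 was downregulated with a log2(fold change) of -1.07 (SE 0.09, adjusted p = 8.36e-09) and at 4 Hz with -0.98 (SE 0.09, adjusted p = 1.6e-08), or by 52.2% and 49.2%. Relative to the median gene on log2(TPM + 1), the values were -1.06 and -1.03. At 10 Hz, 4 of 6 libraries lay below all controls and the difference was -0.31 (95% interval -0.49 to -0.13), with an unadjusted p of 0.0024 and an adjusted p = 0.242 in edgeR's quasi-likelihood test.

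Beside it, Myog, the myotube marker that encodes the differentiation factor myogenin, was at 561 CPM on average in controls against 221 CPM under 1 Hz, 203 CPM under 4 Hz, and 487 CPM under 10 Hz, with log2(fold change) of -1.34, -1.47, and -0.20. In the same order, edgeR's adjusted p was 1.23e-12, 1.54e-13, and 0.409. Of the 10 myotube markers, 0 were higher and 1 lower (Myog) at 1 Hz, 2 were higher (Myh8 and Mylpf, named after their values were seen) and 1 lower (Myog) at 4 Hz, and 0 were called at 10 Hz. The shares of all tested genes were 19.2% higher and 18.1% lower at 1 Hz, and 27.5% and 23.9% at 4 Hz. Limma on log2(TPM + 1) called 0 of the 10 markers higher at both frequencies, with 2 lower at 1 Hz and 1 lower at 4 Hz. On that scale 3.58% of all genes were higher and 21.9% lower at 1 Hz, and 5.83% and 35.9% at 4 Hz. The link of the Myog level to that of Tead4 was not tested.

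Tead2 (ENSMUSG00000030796, chr7:44865172-44883071, plus strand), a TEAD factor known from embryonic tissues, moved the other way. Control libraries ran from 25.7 to 34.7 CPM around a median of 29.3, those at 1 Hz from 35.1 to 37.7 CPM (median 36.8), those at 4 Hz from 34.4 to 47.1 CPM (median 38.5), and those at 10 Hz from 31.7 to 39.5 CPM (median 34.2). All 1 Hz libraries and 5 of 6 at 4 Hz lay above all controls in CPM, though in TPM all conditions overlapped. At 1 Hz, Tead2 was upregulated with a log2(fold change) of 0.31 (SE 0.08, adjusted p = 0.00422) and at 4 Hz with 0.41 (SE 0.08, adjusted p = 0.00021), and the 10 Hz value of 0.24 had an unadjusted p of 0.00623 and an adjusted p = 0.37. Limma on log2(TPM + 1) did not call it (adjusted p = 0.367 at 1 Hz and 0.0849 at 4 Hz), where its changes relative to the median gene were 0.31 and 0.49.

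Tead1 (ENSMUSG00000055320, chr7:112278522-112506014, plus strand), the TEAD factor best known in adult muscle, spread widely under stimulation. From the lowest library through the median to the highest, the level was 94.1, 116, and 134 CPM for unstimulated tissues, 67.1, 115, and 143 CPM under 1 Hz, 63.1, 96.3, and 114 CPM under 4 Hz, and 87.0, 130, and 148 CPM under 10 Hz. The conditions overlapped, and the log2(fold change) was -0.11 at 1 Hz (adjusted p = 0.641), -0.31 at 4 Hz (SE 0.17, adjusted p = 0.147), and 0.08 at 10 Hz (adjusted p = 0.975). The 4 Hz value passed when only these groups were fitted (adjusted p = 0.0339), and so did limma's value on log2(TPM + 1) (adjusted p = 0.0403). Tead3 (ENSMUSG00000002249, chr17:28550645-28569791, minus strand), the remaining paralog, lay between 10.3 and 21.7 CPM in all 24 libraries, with values of -0.15, -0.17, and 0.06 at 1, 4, and 10 Hz and adjusted p of 0.412, 0.33, and 0.982.

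Per length, Tead4 was the leading TEAD transcript of the unstimulated tissues, and it was not at 1 and 4 Hz. Of the summed TPM of the 4 TEAD genes, Tead4 made up 43.9% ± 2.75 in controls, 26.2% ± 1.89 under 1 Hz, 26.0% ± 1.42 under 4 Hz, and 35.9% ± 2.64 under 10 Hz (SD, n = 6). The controls had a range of 40.1% to 47.2% and lay above the 10 Hz libraries (33.5% to 39.7%), which in turn lay above those at 1 Hz (23.3% to 29.1%) and 4 Hz (24.8% to 28.1%). Tead2 made up 24.7% ± 1.82 in controls, 39.8% ± 6.95 under 1 Hz, 43.9% ± 5.12 under 4 Hz, and 31.0% ± 6.42 under 10 Hz. Tead1 and Tead3 kept shares of 17.5% to 20.9% and 12.6% to 13.1% as means of the conditions. The summed TEAD level was 103 TPM in the controls, 74.2 TPM at 1 Hz, 72.0 TPM at 4 Hz, and 99.9 TPM at 10 Hz as means, and shares within that sum are a description without a test. At 1 Hz the ranges of Tead2 (23.6 to 34.4 TPM) and Tead4 (14.1 to 24 TPM) met at their edge, and at 4 Hz Tead2 (25.6 to 41.4 TPM) lay above Tead4 (13.4 to 23.4 TPM) in all libraries.

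**Figure D4:**
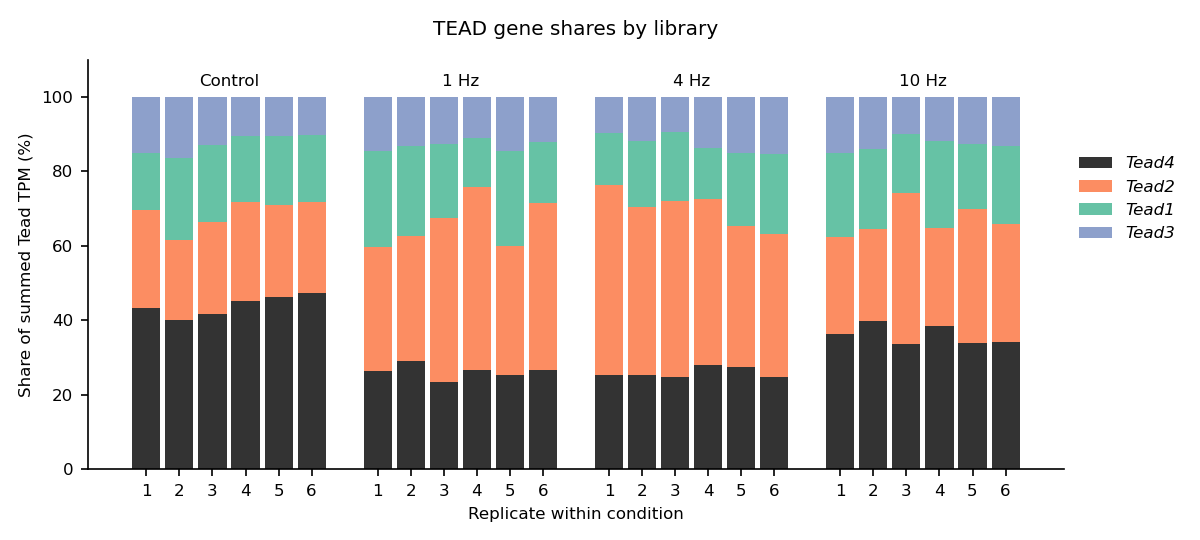
Share of each TEAD gene in the summed TPM of the 4 TEAD genes (vertical axis, percent), 1 stacked bar per library, grouped by condition with replicate numbers on the horizontal axis. Tead4 fills 40.1% to 47.2% of each control bar, 23.3% to 29.1% at 1 Hz, 24.8% to 28.1% at 4 Hz, and 33.5% to 39.7% at 10 Hz, and Tead2 is the larger block at 1 and 4 Hz.

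In the controls, the order of mean levels was Ccn2 (432 TPM), Amotl2 (137 TPM), Ccn1 (112 TPM), Wwtr1 (70.9 TPM), Yap1 (53.3 TPM), Tead4 (45.2 TPM), Lats2 (40.7 TPM), Tead2 (25.4 TPM), Tead1 (19.3 TPM), and Tead3 (13.0 TPM). Neighbours in that order overlapped between libraries except for Ccn2 over Amotl2, Wwtr1 over Yap1, and Lats2 over Tead2. Of the 10 genes, 8 have an annotated gene overlapping them on the other strand (all but Amotl2 and Tead3). Apart from Gm17501, each of those neighbours found in the tables had estimated counts that summed to at most 0.415% of the gene it overlaps.

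Direct comparison of the frequencies placed 10 Hz apart from 1 and 4 Hz. Against 1 Hz, 1 of the 10 genes was higher at 10 Hz (Tead4) and 3 were lower (Ccn1, Ccn2, Amotl2), with 14.8% of all tested genes higher and 13.1% lower. Tead4 was higher by 0.75 (SE 0.10, adjusted p = 3.04e-06), Ccn2 was lower with -1.10 (SE 0.17, adjusted p = 4.51e-05), and Amotl2 was lower with -0.43 (SE 0.12, adjusted p = 0.00974). Ccn1 was lower with -1.57 (SE 0.50, adjusted p = 0.0242). That call was lost without 1 Hz replicate 4 (adjusted p = 0.0555), without 10 Hz replicate 1 (0.0555), 2 (0.0571), or 6 (0.06), without a filter (0.0507), and with only both groups in the fit (0.0511).

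Against 4 Hz, 2 genes were higher at 10 Hz (Tead4 and Yap1) and 3 were lower (Ccn1, Ccn2, Amotl2), with 21.9% of all tested genes higher and 24.4% lower. In CPM the groups did not overlap for Amotl2 (lower) and Tead4 (higher), where 8.1% of all tested genes lay below and 10.8% above. In TPM Amotl2 overlapped and Tead4 did not. Amotl2 was lower with -0.62 (SE 0.12, adjusted p = 0.000186). Ccn1 was lower with -2.0 (SE 0.50, adjusted p = 0.00326), Ccn2 with -0.86 (SE 0.17, adjusted p = 0.000262), and Tead4 was higher by 0.66 (SE 0.10, adjusted p = 6.36e-06). Yap1 was higher by 0.20 (SE 0.07, adjusted p = 0.0282), and this was lost without 4 Hz replicate 1 (adjusted p = 0.0608), 4 Hz replicate 3 (0.0529), or 10 Hz replicate 6 (0.06). On log2(TPM + 1), limma did not call Amotl2 against 1 Hz (adjusted p = 0.185) or 4 Hz (0.0734), nor Ccn2 against 4 Hz (0.0568). Against 4 Hz it called Wwtr1 higher (0.35, adjusted p = 0.0303) and Tead1 higher (0.64, adjusted p = 0.031). The median change of all genes on that scale was 0.20. Tead1 was not called by edgeR (0.39, adjusted p = 0.0741) but was by DESeq2 (adjusted p = 0.0447). EdgeR called it without 4 Hz replicate 6 (0.0455) and without 10 Hz replicate 3 (0.0339) or 5 (0.0274).

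Counts of genes whose groups did not overlap in CPM were also set against all genes. At 1 Hz, Ccn2 and Tead2 lay above all controls and Tead4 below them, where 5.55% of all tested genes lay above and 8.58% below. At 4 Hz, Ccn1 and Ccn2 lay above and Tead4 below, where 12.9% lay above and 14.7% below.

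Of the other 4 CCN genes, 3 were tested, with 1 higher and 1 lower at 1 Hz, 0 higher and 1 lower at 4 Hz, and 0 called at 10 Hz. The shares of all tested genes were 19.2% higher and 18.1% lower at 1 Hz, and 27.5% and 23.9% at 4 Hz. Ccn4 (Wisp1), which encodes a secreted protein known as a Wnt target, had a mean of 77.6 CPM in the controls and was downregulated at 1 Hz with -1.02 (SE 0.18, adjusted p = 0.000134) and at 4 Hz with -1.29 (SE 0.18, adjusted p = 5.22e-06), with 6 of 6 libraries below all controls each time, and its 10 Hz value was 0.09 (adjusted p = 0.968). Ccn3 (Nov), at 5.34 CPM in the controls, passed at 1 Hz with 0.54 (SE 0.22, adjusted p = 0.0489), while its 4 Hz value of 0.46 did not (adjusted p = 0.079). Limma on log2(TPM + 1) called Ccn4 (-1.19 and -1.44) and did not call Ccn3 (0.25, adjusted p = 0.374). Ccn5 was at 6.30 CPM in the controls with -0.01 and 0.02 at 1 and 4 Hz, and Ccn6 was at 0 in all libraries. Of the Vgll cofactors, which compete with YAP and TAZ for TEAD factors or act beside them, Vgll4, a repressor of TEAD activity, was downregulated at 1 Hz with -0.56 (SE 0.10, adjusted p = 0.000178) and at 4 Hz with -0.40 (SE 0.10, adjusted p = 0.00253). At 10 Hz all 6 Vgll4 libraries lay below all controls, as did 0.864% of all tested genes, with -0.22 and an adjusted p = 0.576. Vgll2 and Vgll3, at 7.18 and 151 CPM in the controls, were not called, and Vgll1 was at 0.

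The regulators of YAP and TAZ upstream of the 10 genes are set here beside all tested genes, of which 19.2% were higher and 18.1% lower at 1 Hz, and 27.5% and 23.9% at 4 Hz. Of 22 in the list, 21 were tested, with 2 higher and 8 lower at 1 Hz, 1 higher and 12 lower at 4 Hz, and 0 called at 10 Hz (3 at an unadjusted p under 0.05). The median of their log2(fold change) was -0.17 under 1 Hz and -0.24 under 4 Hz, against 0.04 and 0.06 over all genes tested. With limma on log2(TPM + 1), 0 were higher and 8 lower at 1 Hz and 0 were higher and 15 lower at 4 Hz, with medians of -0.38 and -0.54 against -0.14 and -0.21 over all genes, of which 21.9% and 35.9% were lower on that scale. Stk4, which encodes the Hippo kinase MST1, fell by 0.67 on the log2 scale (SE 0.13, adjusted p = 0.000204) at 1 Hz and by 0.89 (SE 0.13, adjusted p = 4.38e-06) at 4 Hz. Nf2, which encodes the upstream scaffold merlin, fell by 0.61 (adjusted p = 0.000648) and 0.72 (adjusted p = 6.94e-05). Stk3, which encodes the paralog kinase MST2, was higher at 1 Hz (0.34, adjusted p = 0.0069) and not called at 4 Hz (0.03). Frmd6, a FERM domain protein upstream of the kinases, was upregulated by 0.66 (adjusted p = 1.19e-05) at 1 Hz and 0.58 (adjusted p = 2.74e-05) at 4 Hz. Limma on log2(TPM + 1) kept the sign of Frmd6 without a call (0.39 and 0.23, adjusted p of 0.0877 and 0.285), and Stk3 was not called (0.14, adjusted p = 0.422). The kinases Map4k4 and Taok2, which can act on LATS, were downregulated at both frequencies, with -0.33 and -0.50 at 1 Hz and -0.24 and -0.79 at 4 Hz. Lats1 was not called, with 0.16 at 1 Hz and 0.03 at 4 Hz.

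Genes listed as other targets of YAP and TEAD were mixed. Of 18, 17 were tested, with 6 higher and 2 lower at 1 Hz, 5 higher and 4 lower at 4 Hz, and 0 called at 10 Hz (2 at an unadjusted p under 0.05), and the medians of 0.11 and 0.05 at 1 and 4 Hz compare with 0.04 and 0.06 over all genes. These counts lie beside 19.2% of all tested genes higher and 18.1% lower at 1 Hz, and 27.5% and 23.9% at 4 Hz, so the shares at 4 Hz are near those of all genes. With limma on log2(TPM + 1), 3 were higher and 1 lower at 1 Hz, and 3 higher and 5 lower at 4 Hz. The shares of all genes on that scale were 3.58% higher and 21.9% lower at 1 Hz, and 5.83% and 35.9% at 4 Hz. F3, which encodes tissue factor, rose by 0.88 (adjusted p = 7.99e-05) at 1 Hz and 0.84 (adjusted p = 7.78e-05) at 4 Hz. Nuak2, which encodes a kinase, rose by 0.57 (adjusted p = 3.75e-06) and 0.50 (adjusted p = 1.09e-05), and Nt5e, which encodes the ectoenzyme CD73, by 0.39 and 0.64. Dock5, a guanine nucleotide exchange factor, fell by 0.55 and 0.71, Igfbp3 by 0.34 and 0.36, and Ptpn14, a phosphatase that binds YAP, was at -0.34 at 1 Hz (adjusted p = 0.0521) and fell by 0.46 at 4 Hz (adjusted p = 0.00691). Limma on log2(TPM + 1) did not call Nuak2 at 4 Hz (0.19, adjusted p = 0.185). At 1 Hz it did not call Nt5e (0.18, adjusted p = 0.292) or Dock5 (-0.45, adjusted p = 0.0591). It called each of them at the other of these frequencies, and F3 and Igfbp3 at both. Ankrd1, a stretch-responsive gene of striated muscle, had a mean of 1021 CPM in the controls and was at 0.20 for 1 Hz and -0.06 for 4 Hz (adjusted p of 0.0466 and 0.544), and on log2(TPM + 1) at -0.02 and -0.40, or 0.12 and -0.19 relative to the median gene.

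The neighbouring mechanosensing route through actin, MRTF, and SRF was also measured. Of 18 genes, 3 were higher and 1 lower at 1 Hz, 1 was higher and 5 lower at 4 Hz, and 1 was higher and 0 lower at 10 Hz, with medians of 0.07, -0.08, and 0.11 against 0.04, 0.06, and 0.01 over all genes. Among all tested genes, 19.2% were higher and 18.1% lower at 1 Hz, and 27.5% and 23.9% at 4 Hz. The share higher at 1 Hz and the share lower at 4 Hz are thus near those of all genes. The 1 of 18 lower at 1 Hz and the 1 of 18 higher at 4 Hz are smaller shares than those of all genes. With limma on log2(TPM + 1), 1 was higher and 1 lower at 1 Hz, 1 higher and 10 lower at 4 Hz, and 0 were called at 10 Hz. Of all genes on that scale, 3.58% were higher and 21.9% lower at 1 Hz, and 5.83% and 35.9% at 4 Hz. Fhl2, a LIM domain cofactor, was the gene called at 10 Hz by edgeR. It rose by 1.29 (adjusted p = 9.62e-11) at 1 Hz, 1.25 (adjusted p = 9.07e-11) at 4 Hz, and 0.57 (adjusted p = 0.00337) at 10 Hz, where limma on log2(TPM + 1) gave 0.54 with an adjusted p = 0.181. Mrtfa, the coactivator of SRF, fell by 0.62 (adjusted p = 0.00288) at 1 Hz and 0.80 (adjusted p = 0.000156) at 4 Hz. Tagln and Cnn2, which encode actin-binding proteins, were higher at 1 Hz (0.36 and 0.29) and not called at 4 Hz (limma on log2(TPM + 1) called neither at 1 Hz), and the actin genes Acta2 and Actg1 were lower at 4 Hz (-0.41 and -0.35).

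**Figure D5:**
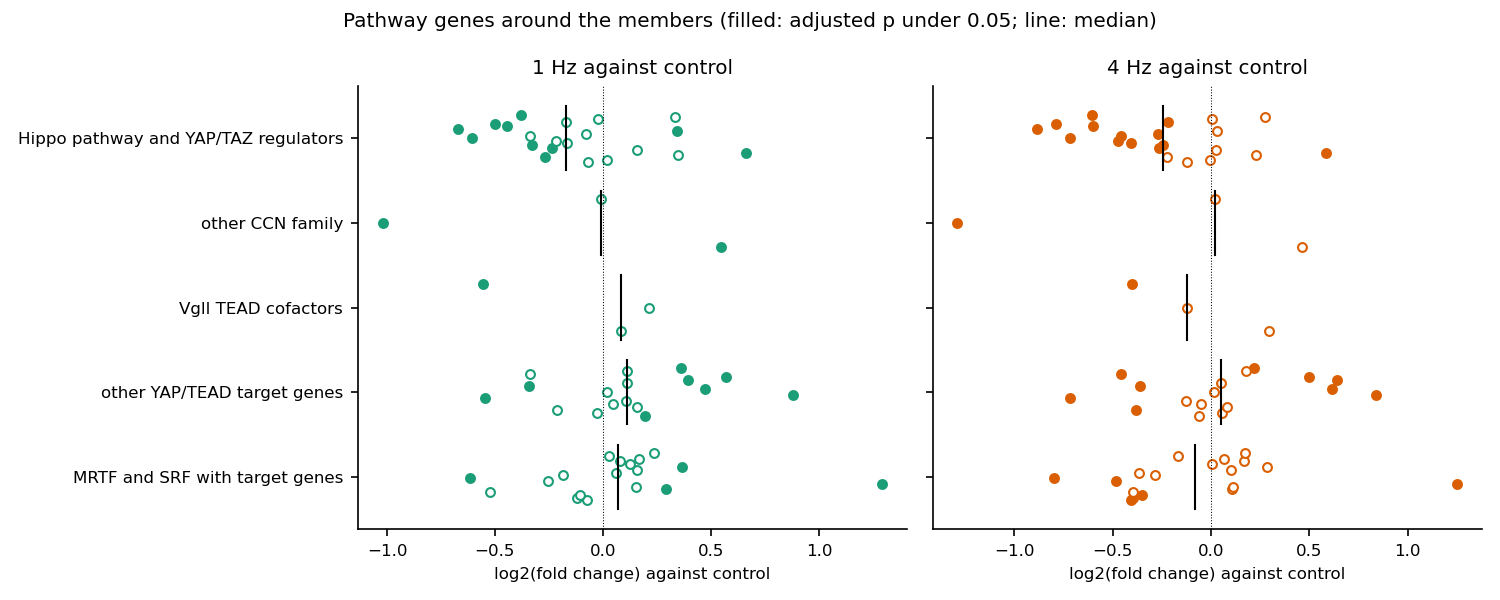
The log2(fold change) at 1 Hz (left) and 4 Hz (right) against the unstimulated control (horizontal axes) of each tested gene in 5 lists around the 10 genes, with filled points at an adjusted p under 0.05 and the median of each list as a black line. The median of the Hippo regulators lies at -0.17 and -0.24, against 0.04 and 0.06 over all genes tested.

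The genes whose pattern was most like Ccn1, Ccn2, or Yap1 were sought among 11830 tested genes whose average log2 CPM was 1 or more, by Pearson's r of log2 CPM over the 24 libraries. For Ccn1 they were Egr2 (r of 0.983, Spearman's coefficient 0.982), Csrnp1 (0.982, Spearman 0.960), and Phlda1 (0.981, Spearman 0.961). These values held once the mean of each condition was removed, at 0.983, 0.964, and 0.971, so they describe differences between replicates of a condition as well as between conditions. For Ccn2 they were Lurap1l (0.939, Spearman 0.957), Nfxl1 (0.914, Spearman 0.921), and Frmd6 (0.907, Spearman 0.897), which fell to 0.853, 0.649, and 0.654 within conditions. For Yap1 they were Myo1c (0.937, Spearman 0.948), Nol6 (0.921, Spearman 0.896), and Wwc2 (0.914, Spearman 0.917), with 0.928, 0.924, and 0.884 within conditions. All libraries share their normalization and the genes were picked for their r, so these values are descriptions. Egr2, a zinc finger transcription factor, was upregulated by 1.48 at 1 Hz and 1.88 at 4 Hz (adjusted p of 0.0318 and 0.00561), and its 10 Hz value was 0.24 (adjusted p = 0.976).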

How the data were processed

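The methods describe directional libraries with poly(A) selection, while the labels state that low-input samples, which are not named, were ribodepleted. The authors processed the reads with nf-core/rnaseq and the Ensembl annotation of GRCm39. They deposited salmon estimated counts per gene and TPM per gene for 24 libraries, neither of them filtered. Of the estimated counts, 6.15% were not whole numbers (off by more than 0.001). The methods also name BWA-MEM, and its role in the deposited values is not given in the sources used here.

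Counts were rounded and analysed in R 4.3.3 with edgeR 4.0.16 (filterByExpr with minimum count 10 and total 15, TMM factors, robust quasi-likelihood test, a mean per condition, Benjamini-Hochberg adjustment over all genes). A gene was called at an adjusted p under 0.05. Intervals are 95% normal intervals from the SE. DESeq2 1.42.0 (Wald test) and limma 3.58.1 (trend, on log2(TPM + 1) and log2(TPM + 0.1), genes at 1 TPM or more in 6 libraries) were alternatives, next to other scaling factors, no filter or a strict one (50 counts in 6 libraries), both groups only, a replicate block, a fold threshold of 0.5, and leaving out each library. The tests were tested on simulated data. The 10 genes, the 6 pathway lists (1 of them is not reported here), the 7 marker lists, and the tests were chosen with earlier results of these data known, so none of them is independent of those results. Named genes are the 10 members, all other Ccn and Vgll genes, up to 3 genes per direction of each reported pathway list with the smallest p at each frequency, and the 3 genes with the highest r to Ccn1, Ccn2, and Yap1. Gm17501, Myog, Myh8, Mylpf, Sdc4, Pax7, Myf5, Lats1, and Ankrd1 were named after their values were seen. Gene positions are from GENCODE M39, which held 98.9% of the gene identifiers. Promoter motifs were counted in the RefSeq table.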

Additional observations from a re-analysis of the deposited data

How the results depend on the processing

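The number of the 10 genes called stayed within 1.5 times its main value under all alternatives run, with 1 exception. With the threshold of 0.5 on log2(fold change), 3 genes in place of 6 were called at 4 Hz. Leaving out 1 library gave 4 calls at 1 Hz every time and 5 or 6 at 4 Hz. Without the 3 libraries with the lowest median log2(TPM + 1) (1 Hz replicates 4 and 6 and 4 Hz replicate 3, an alternative chosen after seeing the data), 5 genes were called at 1 Hz and 5 at 4 Hz, Lats2 passed at 1 Hz (0.22, adjusted p = 0.0406), and Yap1 did not at 4 Hz (-0.17, adjusted p = 0.0617). The replicate numbers do not pair the libraries. The r of same-numbered libraries' deviations from their condition means ran from -0.33 to 0.24, and 1 of 24 libraries was closest to its own number. With the number as a replicate block, edgeR called 3 of the 10 for 1 Hz, 6 for 4 Hz, and 0 for 10 Hz, and Ccn1 missed at 1 Hz (1.44, adjusted p = 0.0559), and over all genes the calls went from 4962 to 4613 at 1 Hz and from 6842 to 6647 at 4 Hz. Values without a call changed sign in places. On log2(TPM + 1) and log2(TPM + 0.1), Lats2 was -0.11 and -0.12 at 1 Hz, -0.21 and -0.21 at 4 Hz, and 0.0398 and 0.0416 for 10 Hz against 1 Hz. These values still hold the general shift of that scale, and relative to the median gene Lats2 was 0.03 at 1 Hz and 0.0003 at 4 Hz, without a change of sign. Before that step, Wwtr1 was -0.13 and -0.14 at 1 Hz and -0.30 and -0.31 at 4 Hz on these scales. At 10 Hz, Tead3 was -0.0209 and -0.0241 and Yap1 -0.0119 and -0.0124. Wwtr1 at 4 Hz was -0.000219 with RLE factors, -0.0184 without a filter, -0.00149 with both groups only, and -0.000155 with DESeq2. Without the 3 libraries above, Tead3 was 0.000666 and Tead1 0.12 at 1 Hz. With each library left out in turn, Wwtr1 at 4 Hz ran from -0.00922 to 0.0357, and at 10 Hz Ccn1 ran from -0.39 to 0.24, Yap1 from -0.0195 to 0.0455, Tead3 from -0.00508 to 0.12, and Lats2 from -0.0690 to 0.00252. The cause of these changes was not tested. The interval of the change at 10 Hz, which bounds what could be seen, was -0.97 to 0.94 for Ccn1 and -0.17 to 0.48 for Ccn2 at the same depth and number of libraries.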
